A study of Mus musculus with 16 samples.

Results

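The promoters of the H2 genes of mouse chromosome 17 were examined in Promoter Capture Hi-C lists from mouse liver. H2 is the mouse major histocompatibility complex (MHC). A promoter was included if its bait fragment held the start of a chromosome 17 protein-coding gene with a symbol beginning H2- in GENCODE vM1 (build mm9), and every listed pair with an end on such a fragment was taken. A bait is a HindIII restriction fragment listed as captured promoter at any timepoint. Of 36 such gene records, which lie between chr17:34075766 and chr17:37620497, 18 had a bait at their start. These 18 baits, of 18165 in the series, carried 114 of 247177 distinct pairs.

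The livers came from male C57BL/6 mice of wild type genotype. The mice, given as 8 weeks old, were kept for 2 weeks under a cycle of 12 h light and 12 h dark and fed freely. Livers were collected at zeitgeber times ZT0 (lights on), ZT6, ZT12 (lights off) and ZT18, in 3 pools of 2 livers per timepoint. Interactions were called after merging of the pools, which left 1 list per timepoint, and no value below has a replicate error or a test. A listed value is a CHiCAGO score, which rises as the reads of a pair exceed the level that distance and noise predict. The lists hold scores of at least 5, and a pair that is not listed may lie just below. The 4 lists held 146262 to 154775 pairs. The number of sequenced read pairs behind each score was not analysed here. Intervals in parentheses after a share are 95% Wilson intervals, which cover counting error only, and pairs of the same bait are not independent.

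Classical class I molecules, such as those encoded by H2-K1 and H2-D1, present peptides from inside the cell to cytotoxic T cells on nearly all nucleated cells. Class II molecules, encoded by H2-Aa, H2-Ab1, H2-Eb1 and H2-Eb2, present peptides from ingested proteins to helper T cells, and H2-DM and H2-O regulate the loading of those peptides. Class II genes are expressed mainly by professional antigen-presenting cells, which in liver include Kupffer and dendritic cells, whereas hepatocytes make up most of the tissue. The non-classical class I genes of the Q, T and M clusters have more restricted or specialised roles. H2-Ke6, also named Hsd17b8, encodes a hydroxysteroid dehydrogenase and is not an antigen-presenting molecule. Whole liver was used, so a contact present in few cells and a weak contact present in many cannot be told apart.

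Promoter windows of 300 bases, from 250 before to 50 after the gene start, were taken from RefSeq (GRCm38.p6). They were found for 32 of the 35 H2 symbols. All 32 matched mm9 chromosome 17 exactly and at a single place, from which the positions given here were read. For 16 of the 17 members found, the centre of the window lay on the bait, and some of these windows ran past a bait end. Both windows of H2-DMa lay upstream of its bait, which holds the GENCODE start. The windows are shown for H2-Ob and the class II promoters that it met at every timepoint (H2-DMb2 and H2-Eb2), for the only classical class I bait (H2-D1), and for the M cluster promoters with the most pairs (H2-M5 and H2-M10.6). Each is written 5′ to 3′ on the strand of its gene, with capitals for the letters of the motifs searched on both strands: the Y box core TGATTGG, which on the opposite strand reads CCAATCA and is bound by NF-Y, the interferon-response letters TTTCNNTTC and the kappaB core GGGATTCCC. No letters are capitalised in H2-M5, in which none of these motifs was found.
H2-Ob, plus strand, chr17:34375600-34375899: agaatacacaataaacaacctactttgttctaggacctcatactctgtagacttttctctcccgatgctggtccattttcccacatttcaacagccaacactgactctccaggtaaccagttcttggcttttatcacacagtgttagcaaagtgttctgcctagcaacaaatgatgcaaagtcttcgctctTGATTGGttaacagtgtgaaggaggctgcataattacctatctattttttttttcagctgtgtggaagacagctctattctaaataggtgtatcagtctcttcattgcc
H2-DMb2, plus strand, chr17:34281944-34282243: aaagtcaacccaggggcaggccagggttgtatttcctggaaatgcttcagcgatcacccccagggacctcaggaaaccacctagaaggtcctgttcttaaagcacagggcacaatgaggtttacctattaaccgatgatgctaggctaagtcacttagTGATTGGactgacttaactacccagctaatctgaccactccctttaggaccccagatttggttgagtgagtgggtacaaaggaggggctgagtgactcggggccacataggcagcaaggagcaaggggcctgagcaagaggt
H2-Eb2, plus strand, chr17:34462370-34462669: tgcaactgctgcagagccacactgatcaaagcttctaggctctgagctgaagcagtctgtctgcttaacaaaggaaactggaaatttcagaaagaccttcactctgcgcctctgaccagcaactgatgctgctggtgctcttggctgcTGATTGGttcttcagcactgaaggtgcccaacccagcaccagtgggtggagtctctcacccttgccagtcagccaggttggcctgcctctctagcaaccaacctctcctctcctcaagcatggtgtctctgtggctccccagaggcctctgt
H2-D1, plus strand, chr17:35399789-35400088: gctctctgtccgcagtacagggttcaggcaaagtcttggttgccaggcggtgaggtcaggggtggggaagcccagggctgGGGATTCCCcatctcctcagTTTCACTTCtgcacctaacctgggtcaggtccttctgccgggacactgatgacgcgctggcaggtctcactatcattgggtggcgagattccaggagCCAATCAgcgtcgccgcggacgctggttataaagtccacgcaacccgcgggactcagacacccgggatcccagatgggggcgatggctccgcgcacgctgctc
H2-M10.6, plus strand, chr17:36948870-36949169: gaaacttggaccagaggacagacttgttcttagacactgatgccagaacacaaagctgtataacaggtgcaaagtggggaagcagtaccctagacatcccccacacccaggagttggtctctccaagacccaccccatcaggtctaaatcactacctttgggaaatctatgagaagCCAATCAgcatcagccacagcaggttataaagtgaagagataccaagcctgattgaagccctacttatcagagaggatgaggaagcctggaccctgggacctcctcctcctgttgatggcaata
H2-M5, minus strand, chr17:37126429-37126728: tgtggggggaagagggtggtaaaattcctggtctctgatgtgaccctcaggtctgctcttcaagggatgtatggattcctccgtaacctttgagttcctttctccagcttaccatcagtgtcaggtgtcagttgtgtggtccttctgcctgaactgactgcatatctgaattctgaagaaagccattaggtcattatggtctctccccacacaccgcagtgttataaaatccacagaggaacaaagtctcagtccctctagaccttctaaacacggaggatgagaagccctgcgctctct

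With 1 window per H2 gene, the Y box core was found in 22 of 32, against 7.82% of all 32851 promoter windows of the table. It was present in 7 of 8 class II windows, in both classical class I windows and in 13 of 20 non-classical class I windows. The class II window without it was that of H2-DMa, which lay upstream of its bait, on the fragment of Brd2. The first base of the match lay 59 bases before the start of H2-Ob, 92 before that of H2-DMb2 and 102 before that of H2-Eb2. The interferon-response letters were found in 8 of 32 H2 windows (7.52% of all windows) and in none of the class II windows. The kappaB core was found in 4 windows, those of H2-K1, H2-D1, H2-Q6 and H2-Q7 (0.353% of all windows). The X box core was searched as the exact letters AGCAACAG only, which were found in no H2 window (2.26% of all windows). A form of the X box with other letters would be missed, so these windows cannot be said to lack one. A match of letters is a description of the sequence. Of the 8 genes with the interferon-response letters, only H2-D1 had a bait, so the other matches lie outside the promoters examined here. The same held for the 4 genes with a kappaB core match.

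Baits were listed for all class II genes and for a smaller part of the class I genes. A bait was listed at 18 of the 36 gene starts, against 75.4% of all protein-coding gene starts and 130 of 153 of the other protein-coding genes in the same 3.54 Mb. Of the class II genes 9 of 9 had one. Of the classical class I genes, H2-D1 had one and H2-K1 did not. Among the non-classical class I genes, 6 of 12 of the M cluster, 1 of 5 of the T cluster (H2-T23) and 0 of 6 records of the Q cluster had one. The start fragments of H2-Ke2 and H2-T3 were listed as other ends, with 2 pairs and 1 pair. A fragment is not listed as a bait if it carried no probe or if no pair of it reached the score minimum, and these cannot be told apart here.

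Class I genes arose by duplication and many are near copies of each other, so the share of each gene-start fragment that is unique in the genome was measured beside the bait status, as the percentage of its 50-base words found at a single place on either strand. The median was 95.8% for the 18 H2 fragments with a bait, with a range of 81.0% to 100%. For the 18 H2 fragments without one it was 84.4%, with a range of 36.2% to 100%. The lowest values were those of H2-Q7 (36.2%), H2-Q6 (42.7%) and H2-T9 (46.9%). The ranges overlapped, since H2-Ke2, with no bait listed, had 97.1% and H2-DMb1, with one, had 81.0%. Of the classical class I genes, H2-K1 had 86.3% and H2-D1 had 90.3%. In the first and last 500 words of each fragment, the median was 97.9% for H2 fragments with a bait and 75.3% for those without. At these ends the classical class I genes had the reverse order, with 98.2% for H2-K1 and 79.9% for H2-D1, the lowest of the H2 baits. The H2-T24 fragment was wholly unique but only 118 bp long. Over whole fragments, the other genes of the span showed the same order of medians, with 97.5% for 90 fragments with a bait and 79.3% for 17 without. The part of sequence uniqueness in the bait status was not tested.

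**Figure D1:**
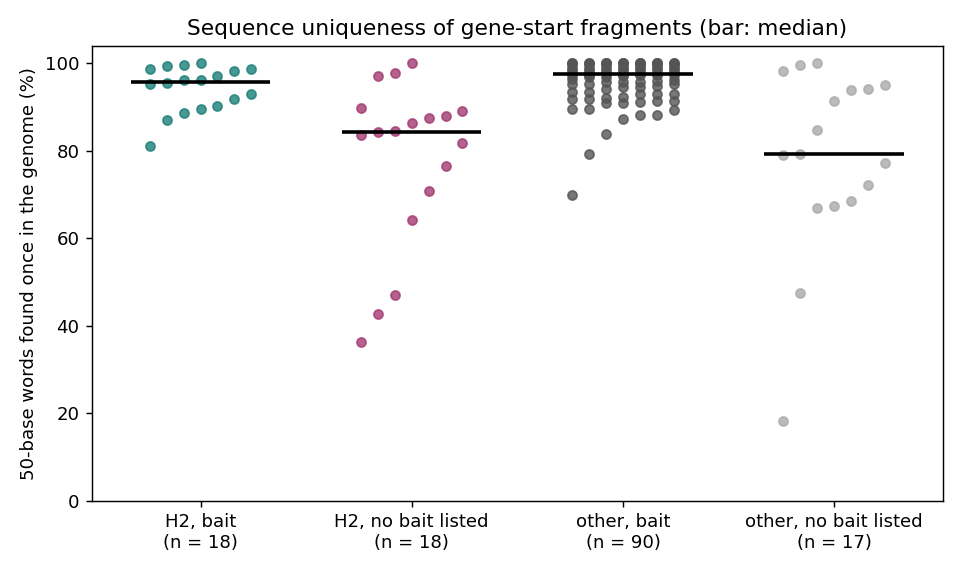
Percentage of 50-base words found once in the mm9 genome (y axis) for gene-start fragments of the H2 span, split by H2 gene or other gene and by whether a bait was listed. Points are fragments and bars are medians, which were 95.8%, 84.4%, 97.5% and 79.3% from left to right.

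The H2 promoters had few pairs for their neighbourhood. The median was 5 pairs per bait, with a range of 1 to 31, against 14 for the 90 other protein-coding promoters of the span and 9 for all baits. Their partners were largely other promoters. Of the 114 pairs, 66 (57.9%, 48.7 to 66.6) had a bait at both ends, against 15.4% of all pairs and 36.5% (33.9 to 39.3) of the pairs of the neighbouring promoters. The share was 56.7% (39.2 to 72.6) for class II, 52.4% (40.3 to 64.2) for non-classical class I and 5 of 5 pairs for H2-D1. The promoters of olfactory receptor genes on chromosome 2, another family of tandem copies, had a share of 55.3% (51.7 to 58.9). Their median number of pairs per bait was also 5.

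Contacts of H2 promoters were local. The median distance between fragment midpoints was 98.0 kb, and 40 pairs (35.1%, 26.9 to 44.2) spanned more than 150 kb, against 53.3% of all pairs and 29.7% (27.1 to 32.3) of those of the neighbouring promoters. No pair joined H2 promoters to another chromosome, and 0 of 114 allows a share of up to 2.63%, above the 0.0801% of all pairs that did so. The 114 pairs reached 83 distinct other ends, of which 82 lay within the span of the H2 genes and 45 were baits. By annotation 60 of these fragments overlapped an exon, 8 lay in an intron and 15 were intergenic. A score of 10 or more at any timepoint was reached by 20 pairs (17.5%), against 21.5% of all pairs.

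Pairs seen at a single timepoint were frequent. All 4 lists held 30 of the 114 pairs (26.3%, 19.1 to 35.1), against 32.5% of all pairs, which lies within the interval. Of these, 16 belonged to H2-M5, and without its pairs the share was 14 of 84 (16.7%). A single list held 56 pairs (49.1%, 40.1 to 58.2), against 35.2% of all pairs and 36.1% (33.5 to 38.9) of the neighbouring promoters. The olfactory receptor promoters of chromosome 2 had 54.9% (51.3 to 58.5) at a single timepoint and 11.8% (9.68 to 14.4) at all 4. Most of the pairs of a single list were listed at ZT6 (21 pairs, 18.4% against 9.95% of all pairs) or at ZT18 (22 pairs, 19.3% against 8.5%). There were 7 at ZT0 (6.14% against 8.20%) and 6 at ZT12 (5.26% against 8.56%). When another end within 10 kb was accepted as the same contact, the share at a single timepoint was 26.3% and that at all timepoints 42.1%. This rule was applied to the H2 pairs only, so these shares cannot be set against those of all pairs. The scores of the pairs of a single list reached at most 8.79.

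Fewer H2 pairs were listed at ZT12 than at any other timepoint. The ZT0 list held 56, the ZT6 list 70, the ZT12 list 43 and the ZT18 list 74. Per 10000 pairs of the list these were 3.83 (2.95 to 4.97), 4.52 (3.58 to 5.71), 2.84 (2.11 to 3.82) and 4.89 (3.90 to 6.14). The intervals of ZT12 and ZT18 did not overlap, whereas that of ZT12 overlapped those of ZT0 and ZT6. Pairs of the same bait are not independent, so this comparison of intervals is not a test. The 90 neighbouring promoters had 731, 684, 751 and 757 pairs, with the lowest number at ZT6. Of the 18 H2 baits, 14 had fewer pairs at ZT12 than at ZT18, none had more and 4 had the same number. Of all baits 38.7% had fewer and 37.7% had more, and of the 90 neighbouring promoters 37 (41.1%) had fewer and 30 had more. ZT12 and ZT18 held the lowest and highest H2 numbers, and baits of a merged list are not replicates of a timepoint. A pair that joins H2 baits counts for both, so the sums over H2 baits were 46 at ZT12 and 82 at ZT18. Against ZT0, 9 H2 baits had fewer pairs at ZT12 and 1 had more, with 35.2% and 42.6% of all baits. Against ZT6, 11 had fewer at ZT12 and 3 had more, with 40.8% and 37.9% of all baits. Among the other timepoints, ZT0 had fewer pairs than ZT6 in 10 baits and more in 4 (43.9% and 34.1% of all baits), and fewer than ZT18 in 9 and more in 1 (42.8% and 34.6%). ZT6 had fewer pairs than ZT18 in 9 baits and more in 6 (38.2% and 40.6%). Both other gene families compared also had their lowest number at ZT12. The olfactory receptor promoters had 368, 396, 279 and 291 pairs, and 60 of their 147 baits (40.8%) had fewer pairs at ZT12 than at ZT18 while 45 had more. The histone cluster promoters had 1165, 1185, 1043 and 1129 pairs, and 23 of 36 baits (63.9%) had fewer at ZT12 than at ZT18 while 9 had more. The lists were assigned to timepoints by the sample labels. A supplied summary gives the list totals in another order. Under that order the lowest H2 number, 43 pairs, falls at ZT6. At a score minimum of 10 the H2 numbers were 9, 13, 9 and 11, and 4 baits had fewer pairs at ZT12 than at ZT18 while 2 had more.

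**Figure D2:**
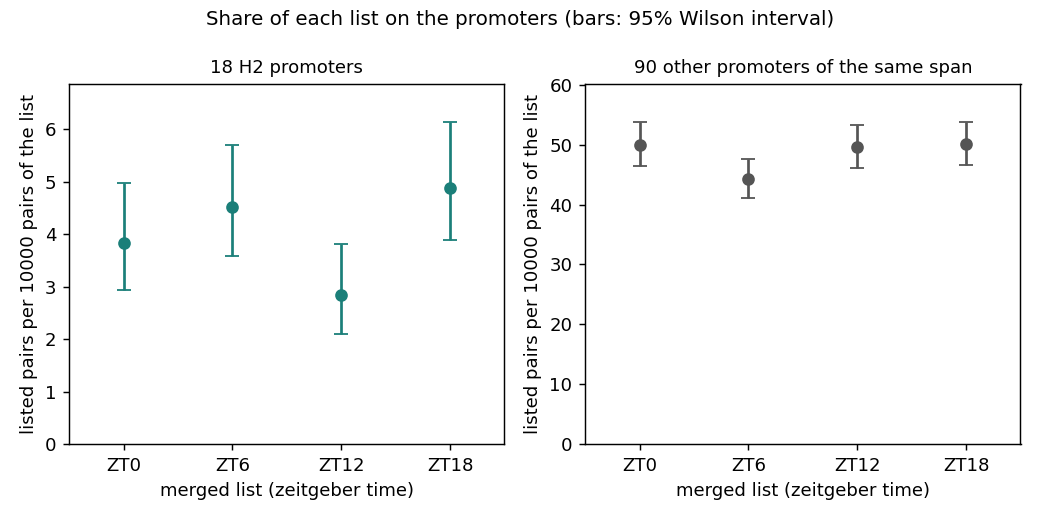
Pairs per 10000 pairs of each merged list (y axes, with different ranges) for the 18 H2 promoters on the left and the 90 other protein-coding promoters of the span on the right, at ZT0, ZT6, ZT12 and ZT18. Points are the values of single lists and bars are 95% Wilson intervals. The H2 value was lowest at ZT12 (2.84) and highest at ZT18 (4.89), and the neighbouring promoters were lowest at ZT6 (44.2).

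The lower number at ZT12 was seen in both large classes. In the order ZT0, ZT6, ZT12 and ZT18, class II promoters had 16, 16, 7 and 21 pairs. Non-classical class I promoters had 30, 46, 26 and 39. H2-D1 had 5, 2, 4 and 5, with its lowest number at ZT6, and the H2-Ke6 fragment had 7, 8, 6 and 10. H2-M5 held 21, 27, 19 and 21 of the pairs, and without them the numbers were 35, 43, 24 and 53. Over the 30 pairs listed at every timepoint, the median scores at the 4 timepoints, in the same order, were 8.13, 9.46, 8.38 and 8.99, and the highest score of a pair fell at ZT12 in 8 of them. These pairs were chosen for passing the minimum at every timepoint.

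**Figure D3:**
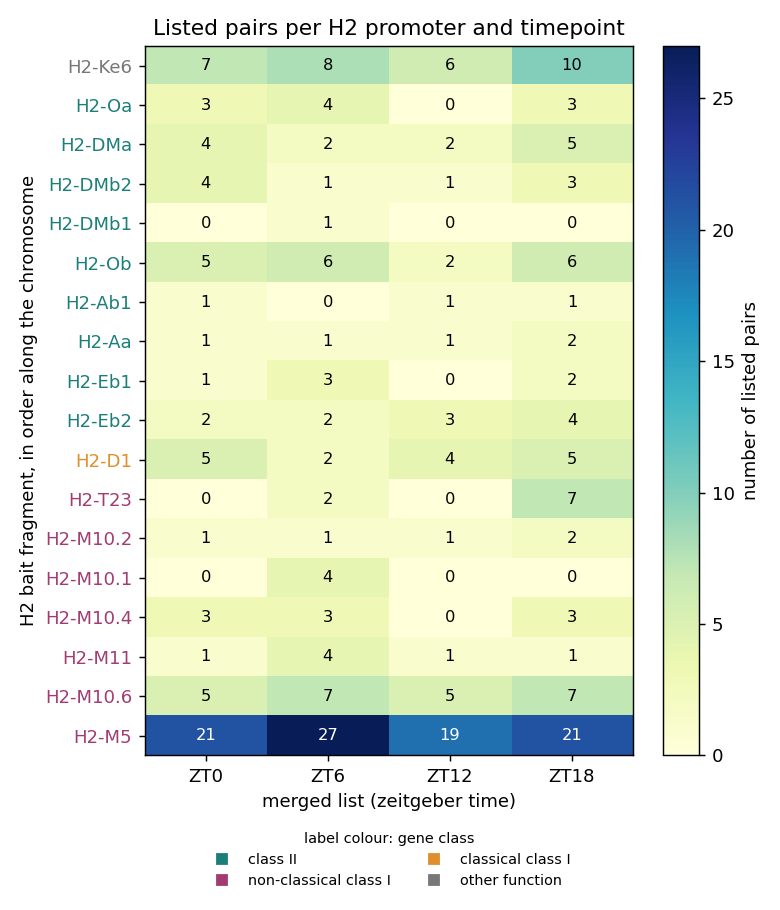
Number of listed pairs of each H2 bait (rows, in order along the chromosome, label colour by class) in each merged list (columns). Colour runs from 0 to 27 pairs. H2-M5 had 19 to 27 pairs at every timepoint, and the ZT12 column holds 6 of the zeros.

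H2-Ob took part in 5 of the 12 pairs that join H2 promoters, more than any other H2 promoter. H2-Ob encodes the beta chain of H2-O, the inhibitor of H2-DM. All 6 of its pairs had a bait at the other end, and in 5 of them this was another H2 promoter. With H2-DMb2, a beta chain gene of the peptide exchange factor H2-DM 93.5 kb away, it scored 13.75, 12.53, 13.41 and 16.89 at ZT0, ZT6, ZT12 and ZT18. It was the highest score between H2 promoters at every timepoint. With H2-Eb2, a class II beta chain gene 88.0 kb away on the other side, it scored 6.66, 10.16, 6.91 and 9.82, so ZT6 and ZT18 were higher than ZT0 and ZT12. Both pairs were listed at every timepoint.

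The remaining contacts of H2-Ob were missing from the ZT12 list. With H2-DMa, the alpha chain gene of H2-DM, it scored 9.51 at ZT0, 7.32 at ZT6 and 8.67 at ZT18. With H2-Oa, which encodes the partner chain of H2-Ob in the H2-O dimer and lies 145 kb away, it scored 5.39, 8.71 and 7.48 at those timepoints. With the H2-Ke6 fragment it scored 6.34, 8.17 and 7.57. With the fragment holding the starts of Psmb8, an immunoproteasome subunit, and Tap2, a subunit of the peptide transporter, it scored 6.91 at ZT6 and 5.96 at ZT18 and was not listed at ZT0 or ZT12. H2-Ob thus had 2 pairs at ZT12, against 5, 6 and 6 at ZT0, ZT6 and ZT18.

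**Figure D4:**
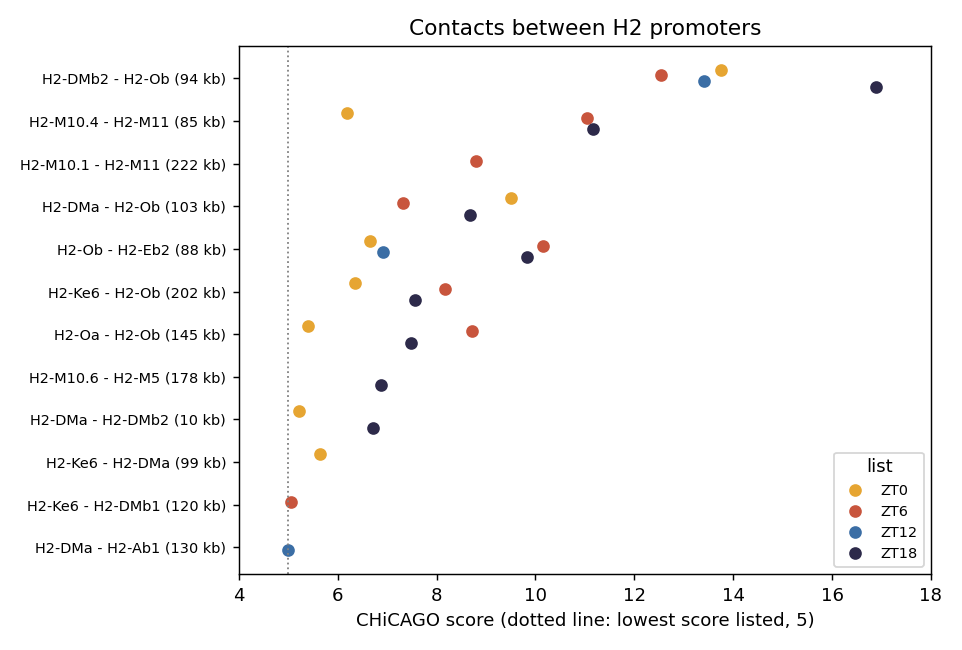
CHiCAGO scores (x axis) of the 12 pairs that join H2 promoters, with the distance between midpoints, in the 4 merged lists (colours). A missing point is a pair not listed at that timepoint, and the dotted line is the lowest score listed. H2-DMb2 to H2-Ob stands at 12.53 to 16.89 and only 3 pairs have a point at ZT12.

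H2-DMa had 7 pairs, and its only pair at every timepoint was with the Psmb8 and Tap2 fragment, at 8.13, 9.17, 5.99 and 11.77, lowest at ZT12. It also met H2-DMb2, which lies 9.65 kb away, at ZT0 (5.21) and ZT18 (6.72), and H2-Ab1 at ZT12 with the lowest score a list can hold. The fragments of H2-DMb2 and H2-DMb1 share a match of 1068 bp at 96.5% identity. They were the only pair of the 153 possible member pairs with at least 95% identity over at least 500 bp. These fragments lie side by side and were not listed as a contact. No H2 bait was listed with a fragment directly beside its own, so this absence cannot be read as a lack of contact. H2-DMb1 had a single pair, with the H2-Ke6 fragment at ZT6 (5.05), and its fragment was the least unique of the H2 baits (81.0%). H2-Oa had 5 pairs, none of them at ZT12, including Notch4, a receptor gene 471 kb away, at ZT6 (5.23) and ZT18 (6.14).

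The genes of the classical class II molecules had few pairs, and each was listed with a shared fragment that is not a bait, beside other partners. H2-Ab1 had 2 pairs, H2-Aa 2, H2-Eb1 3 and H2-Eb2 5. The fragment chr17:34387652-34389534, which lies in an intron of H2-Ob by the annotation, was contacted by all 4 of them and by H2-DMb2. H2-Aa scored 7.17, 6.11, 5.79 and 5.75 with it at ZT0, ZT6, ZT12 and ZT18. H2-Eb2 scored 8.02, 5.75, 8.39 and 7.61. H2-Eb1 scored 6.13, 6.43 and 5.32 at ZT0, ZT6 and ZT18 and was not listed at ZT12. H2-Ab1, only 12.8 kb away, scored 6.04 at ZT0 and 5.63 at ZT18. H2-DMb2 was listed with it at ZT0 alone (5.23). The adjacent fragment chr17:34385221-34387651, which overlaps an exon of Gm20506, was contacted by H2-Aa, H2-Eb1 and H2-Eb2, at 5.04 to 6.51. All of these scores were below 10, so they lay nearer the minimum than that of H2-DMb2 with H2-Ob.

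H2-D1, the classical class I gene with a bait, had 5 pairs, and each of the other ends was a bait. They lay at most 140 kb away. With the fragment 8.65 kb away that holds the start of CR974466.1 it scored 8.19, 6.99, 10.51 and 9.12, highest at ZT12. With the fragment holding the starts of Csnk2b, a casein kinase subunit, and Gpank1 it scored 6.28, 7.22, 5.83 and 7.14. The fragments holding SNORA38 (9.96, 7.99 and 8.19) and Prrc2a (8.38, 5.32 and 6.18) were listed at ZT0, ZT12 and ZT18 and not at ZT6. The fragment with SNORD83 was listed at ZT0 (6.44) and ZT18 (6.48). No pair of H2-D1 had another H2 promoter at its end.

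H2-T23, which encodes Qa-1, a ligand of an inhibitory receptor of natural killer cells, had 7 pairs at ZT18, 2 at ZT6 and none at ZT0 or ZT12. The pairs of both lists were those with Abcf1 (6.29 at ZT6 and 5.52 at ZT18) and with the fragment of Gm20508 (5.52 and 5.57). The highest score was 8.06 at ZT18, with the fragment of Mir877. All of its other ends lay 24.0 to 67.4 kb away at lower coordinates. Its fragment was 88.6% unique.

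H2-M5 had the most pairs of the H2 promoters. Of its 31 contacted fragments, 28 lay at lower coordinates and 14 of them between 50 and 100 kb away, with 10 of these listed at every timepoint. The highest score was with the intergenic fragment chr17:37049855-37056746, 75.1 kb away, at 10.73, 16.69, 18.96 and 16.75 at ZT0, ZT6, ZT12 and ZT18. That score was lowest at ZT0 and highest at ZT12. With Trim40, a gene of the tripartite motif family, it scored 9.20, 9.36, 15.08 and 10.57, again highest at ZT12. Trim31, another member of that family, gave 9.82, 7.95, 7.09 and 7.73. On the other side H2-M5 met Gabbr1, a subunit gene of the GABA-B receptor, at 7.44 at ZT0 and 9.65 at ZT6, with the other timepoints between. The number of pairs was highest at ZT6 (27) and lowest at ZT12 (19).

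**Figure D5:**
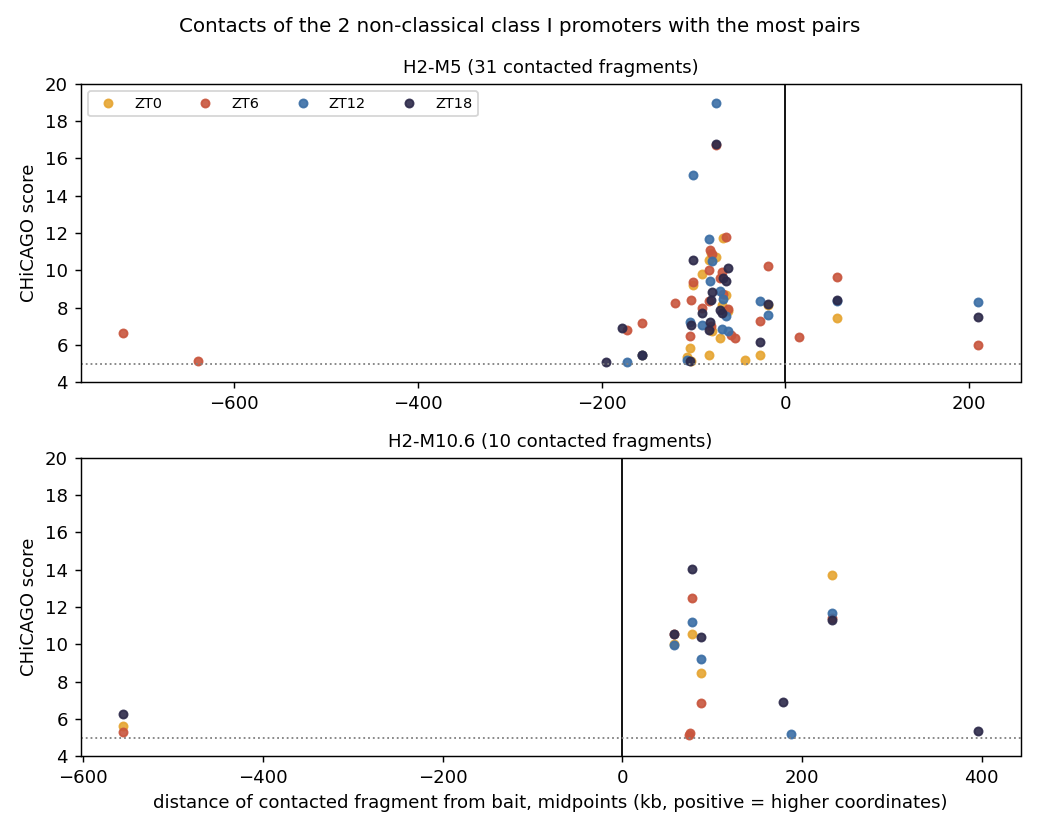
CHiCAGO score (y axis) against the distance of each contacted fragment from the bait (x axis, kb between midpoints) for H2-M5 above and H2-M10.6 below, in the 4 merged lists (colours). The dotted line is the lowest score listed. H2-M5 has 28 of 31 contacts at lower coordinates, and the strongest contacts of H2-M10.6 lie at higher coordinates.

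H2-M10.6, at lower coordinates than H2-M5, also contacted the Trim40, Trim31 and Gabbr1 fragments. It scored 10.53, 12.46, 11.21 and 14.01 with Trim40, and 13.69, 11.40, 11.67 and 11.32 with Gabbr1, 234 kb away. With the fragment of Trim15 and Trim10 it scored 10.04, 10.53, 9.97 and 10.54, a range of less than 1 unit. With Trim31 it scored 8.47, 6.84, 9.23 and 10.39. These 4 pairs were listed at every timepoint. Its pair with H2-M5 was listed at ZT18 alone (6.88).

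H2-M10.1 and H2-M10.4 shared some of these TRIM and Gabbr1 partners, each pair at a single timepoint, and H2-M10.2 had none of them. H2-M10.2 was listed with Trim26 at ZT18 (5.41). H2-M5 met Trim26 at every timepoint, at 5.47, 7.15, 5.44 and 5.48. Trim40 and Gabbr1 were each contacted by H2-M10.1, H2-M10.4, H2-M10.6 and H2-M5. Rpp21, which encodes a subunit of ribonuclease P, was contacted by H2-M10.1, H2-M10.2, H2-M10.4 and H2-M10.6. With H2-M10.2, only 24.0 kb away, Rpp21 scored 12.25, 12.14, 11.41 and 11.38, the shortest of its 4 pairs with H2 promoters. H2-M10.1 had 4 pairs, all at ZT6: with H2-M11 (8.79), Trim40 (7.96), Gabbr1 (7.78) and Rpp21 (6.77). H2-M10.4 had 3 pairs at ZT0, 3 at ZT6, none at ZT12 and 3 at ZT18. Its pair with H2-M11, 84.6 kb away, was the only one of its 7 seen at more than 1 timepoint, at 6.19, 11.05 and 11.17 at ZT0, ZT6 and ZT18. H2-M11 had 5 pairs, 4 of them at ZT6.

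The H2-Ke6 fragment is 24274 bp long and also holds the starts of Ring1, a Polycomb gene, Slc39a7, Rxrb and Col11a2, so its 19 pairs cannot be assigned to H2-Ke6. Its contacts reached farther, with 13 pairs over 150 kb. Of its pairs only those with Notch4 (5.26 to 7.07) and with chr17:34190618-34191938, which overlaps an exon of Col11a2 (7.30, 7.20, 7.73 and 9.39) were listed at every timepoint. Without this fragment 55 of 98 pairs (56.1%) joined baits and 28 (28.6%) spanned more than 150 kb.

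Of the 153 possible pairs of H2 baits, 12 were listed. They were 6 of 36 within class II, 3 of 21 within non-classical class I and 3 of 96 between classes, and those 3 all involved the H2-Ke6 fragment. No class II promoter was listed with a class I promoter. The nearest baits of these classes, H2-Eb2 and H2-D1, begin at chr17:34462399 and chr17:35395225, while the median H2 pair spanned 98.0 kb. Distance was not matched in these counts. The 36 include H2-DMb2 with H2-DMb1, whose fragments lie side by side. The 12 H2 to H2 pairs were 10.5% (6.12 to 17.5) of the H2 pairs. Within their own, larger sets, the 90 neighbouring promoters had 24.4% (22.0 to 26.9) and the 147 olfactory receptor promoters 51.4% (47.8 to 55.0). At ZT12, 3 of the 12 were listed: H2-DMb2 with H2-Ob, H2-Ob with H2-Eb2, and H2-DMa with H2-Ab1. In the networks of all listed bait-to-bait pairs, every component with an H2 promoter lay on chromosome 17 alone. At ZT0, 12 H2 baits lay in 1 component of 113 fragments. At ZT6 and at ZT18 the connected class II and M cluster promoters lay in separate components, of 69 and 43 fragments and of 72 and 36 fragments. At ZT12, H2-DMb2, H2-Ob and H2-Eb2 formed a component of 3 fragments apart from the other 7 connected H2 baits. Those 7, among them class II promoters, H2-D1 and M cluster promoters, lay in 1 component of 195 fragments, the largest with H2 promoters at any timepoint.

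Of the antigen processing genes of the region, Psmb8 and Tap2 were partners of H2 promoters, and Tap1, Psmb9 and Tapbp were not listed with one. Of the 103 baits of the span that are not H2 promoters, 31 (30.1%) were listed with an H2 promoter. The 5 antigen processing genes of the region (Tap1, Tap2, Tapbp, Psmb8 and Psmb9) lay on 3 bait fragments, and 1 of these, which holds Psmb8 and Tap2, was listed with H2 promoters (H2-DMa and H2-Ob). Other genes were chosen for their position. None of the 5 complement and cytokine genes with a bait was a partner. These are counts of genes, not of fragments, since Tnf and Lta shared a bait, as did Hspa1a and Hspa1l. Of 9 framework genes, Ring1 and Rxrb lay on the H2-Ke6 fragment, and Notch4 and Ager were partners. Ager was listed with the H2-Ke6 fragment only, at ZT12 alone (6.52). A further 22 annotated genes of antigen presentation lie elsewhere, 21 of them on other chromosomes and Nfya 10.9 Mb beyond the span. H2 promoters had no pairs between chromosomes, so these genes give no further count. Among them B2m, which encodes the light chain of class I molecules, had 2 pairs, 1 of them listed at every timepoint.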

How the data were processed

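Promoter Capture Hi-C reads of 16 sequencing runs (3 pools per timepoint, with pool A sequenced on 2 lanes) were mapped to mm9 and filtered with HiCUP by the authors, who merged the runs of each timepoint before running CHiCAGO. Each deposited value is the CHiCAGO score of a pair of HindIII fragments at 1 timepoint, with a minimum of 5. All 5058 listed fragments of chromosome 17 were identical to a HindIII fragment of the mm9 reference.

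Python 3.11.15 with numpy 2.4.6 and pandas 2.3.3 was used. The direction of a pair was ignored, and gene starts came from GENCODE vM1. Wilson intervals were computed with scipy 1.17.1, networks with networkx 3.6.1 and fragment similarity with blastn 2.17.0. The counting was tested on simulated data. Samples were grouped by their labels.

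The members and lists were chosen with earlier results of these data known. Named genes were, per class, the 3 baits with the most pairs, every classical class I and class II bait, their strongest persistent pairs, non-H2 baits that contact at least 3 members, and a list of antigen presentation and neighbouring genes. Other alternatives are given at the end.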

Additional observations from a re-analysis of the deposited data

How the results depend on the processing

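Raising the score minimum to 7 or 10 left 54 and 20 pairs, by construction fewer. At 7 the share listed at 1 timepoint was 37.0% and the promoter-promoter share 66.7%. At 10 the share over 150 kb was 5%. Pairs at ZT0, ZT6, ZT12 and ZT18 numbered 26, 37, 25 and 39 at a minimum of 7 and 9, 13, 9 and 11 at 10, where ZT12 was no longer alone at the lowest number. Baits with fewer pairs at ZT12 than at ZT18 numbered 11 at a minimum of 7, with none that had more, and 4 at 10, with 2 that had more. With the list order in the summary supplied with the study, ZT6 had 43 pairs and ZT12 had 74. Without H2-M5 the share listed at all timepoints was 16.7%, the promoter-promoter share 67.9%, and the pairs at ZT0, ZT6 and ZT12 numbered 35, 43 and 24. Accepting another end within 10 kb, for the H2 pairs only, gave 42.1% at all timepoints and 26.3% at 1. The cause of these differences was not tested. The other 61 of 84 values stayed within 1.5 times the count or inside the interval of the share, among them those with equal list lengths and scaled list totals. Some of the 61 could not move. No pair had fragments that share a sequence match, so leaving such pairs out removed none. Starts of any protein-coding transcript gave 18 member fragments and the same values. A stricter selection from 0 pairs between chromosomes can only give 0. The alternatives for the comparison of ZT12 with ZT18, for equal list lengths by timepoint and for leaving out H2-M5 or H2-T23 by timepoint were chosen after seeing the data. No paired analysis was possible because each list comes from merged pools, and for that reason no replicate could be left out. With 1 to 31 pairs per bait, differences between single promoters rest on few pairs.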
